A study of Mus musculus with 12 samples.

Results

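The messenger RNA of 9 genes of the excitatory postsynapse was examined in the hippocampus of N40K transgenic mice and of their wild-type (WT) littermates. The genes encode dendrin (Ddn), the alpha and beta subunits of calcium/calmodulin-dependent protein kinase II (Camk2a, Camk2b) and the scaffold proteins PSD-95 (Dlg4), SHANK1, SHANK2 and SHANK3 (Shank1, Shank2, Shank3), HOMER1 (Homer1) and SAPAP1, also called GKAP (Dlgap1). They were taken by gene name from a table of 23352 gene entries, and all 9 were found. The table gives expression as FPKM, fragments per kilobase of transcript and scaled to the mapped depth of a library, and all 9 genes were among the 13945 genes tested, which reached 1 FPKM in 3 or more libraries.

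N40K is a shortened form of U1-70K, the protein that Snrnp70 encodes and that belongs to the U1 particle of the splicing machinery. The mice carried it as a transgene of 1 line, Tg396, on C57BL/6J, and neurons expressed it under a modified CaMKIIa promoter. The 4 groups of 3 libraries each were N40K mice at 12 months, WT mice at 12 months, N40K mice at 3 months and WT mice at 3 months. The WT animals were non-transgenic littermates. No source used here says whether a library is 1 mouse or a pool, so p-values measure the spread between these libraries. All libraries of the 12-month mice have names from another number series than those of the 3-month mice, so age and library series cannot be told apart.

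The postsynaptic density is the protein layer under the membrane of an excitatory synapse, on the head of a dendritic spine. PSD-95 binds glutamate receptor complexes through its PDZ domains, SAPAP1 links PSD-95 to the SHANK proteins, and HOMER1 links SHANK proteins to metabotropic glutamate receptors. CaMKII is activated by calcium that enters through NMDA receptors and is required for long-term potentiation in hippocampal CA1. Dendrin is found in dendrites and spines of forebrain neurons, where its mRNA is also carried into dendrites, and in podocytes of the kidney. The Camk2a promoter is widely used to drive transgenes in excitatory forebrain neurons, and here a modified form of it drove N40K.

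Snrnp70 levels matched the genotype labels in every library. They were 305, 320 and 259 FPKM in N40K mice at 12 months, against 138, 96.0 and 133 FPKM in WT mice, and 399, 401 and 377 FPKM in N40K mice at 3 months, against 179, 161 and 179 FPKM in WT mice. The columns do not separate transgene from endogenous Snrnp70 reads. Libraries held an estimated 39.7 to 96.6 M (mega) fragments, which puts at least 1980 fragments behind every value of the 9 genes, and FPKM sums ran from 309358 to 350760. Markers of CA pyramidal neurons, the principal excitatory cells of the hippocampus, were present (6 of 6 listed, none at 0 in any library). Choroid plexus, which lies next to the hippocampus, differed between libraries of a group, with 8 markers summing to 89.3 to 3727 FPKM in N40K and 1331 to 2698 FPKM in WT mice at 12 months, and to 161.5 to 2060 FPKM in N40K and 229.8 to 6866 FPKM in WT mice at 3 months. Sex is not in the labels: Xist was at 17.3 FPKM in 1 N40K library and at 14.6 and 13.5 FPKM in 2 WT libraries of the 3-month mice, and at 0.112 FPKM or less in the other 9.

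The kinase and dendrin genes were the most abundant of the 9. On the FPKM scale, which is per length of transcript, the means over the 12 libraries were 608.5 for Camk2a, 317.1 for Ddn, 312.2 for Camk2b and 221.2 for Dlg4. The other scaffold genes were lower, at 49.3 for Shank1, 43.0 for Dlgap1, 30.2 for Shank3, 17.3 for Shank2 and 13.8 for Homer1. Neighbours in this order were separated in all 12 libraries for Camk2a over Ddn, Camk2b over Dlg4, Dlg4 over Shank1 and Shank3 over Shank2. Ddn exceeded Camk2b in 6 of the 12 libraries, Shank1 exceeded Dlgap1 in 9, Dlgap1 exceeded Shank3 in 10 and Shank2 exceeded Homer1 in 11. Ddn had the widest range of the 9 genes, with its highest library 2.28 times its lowest, and Homer1 followed with 2.06 times. Shank3 and Dlg4 varied least, at 1.26 times each.

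**Figure D1:**
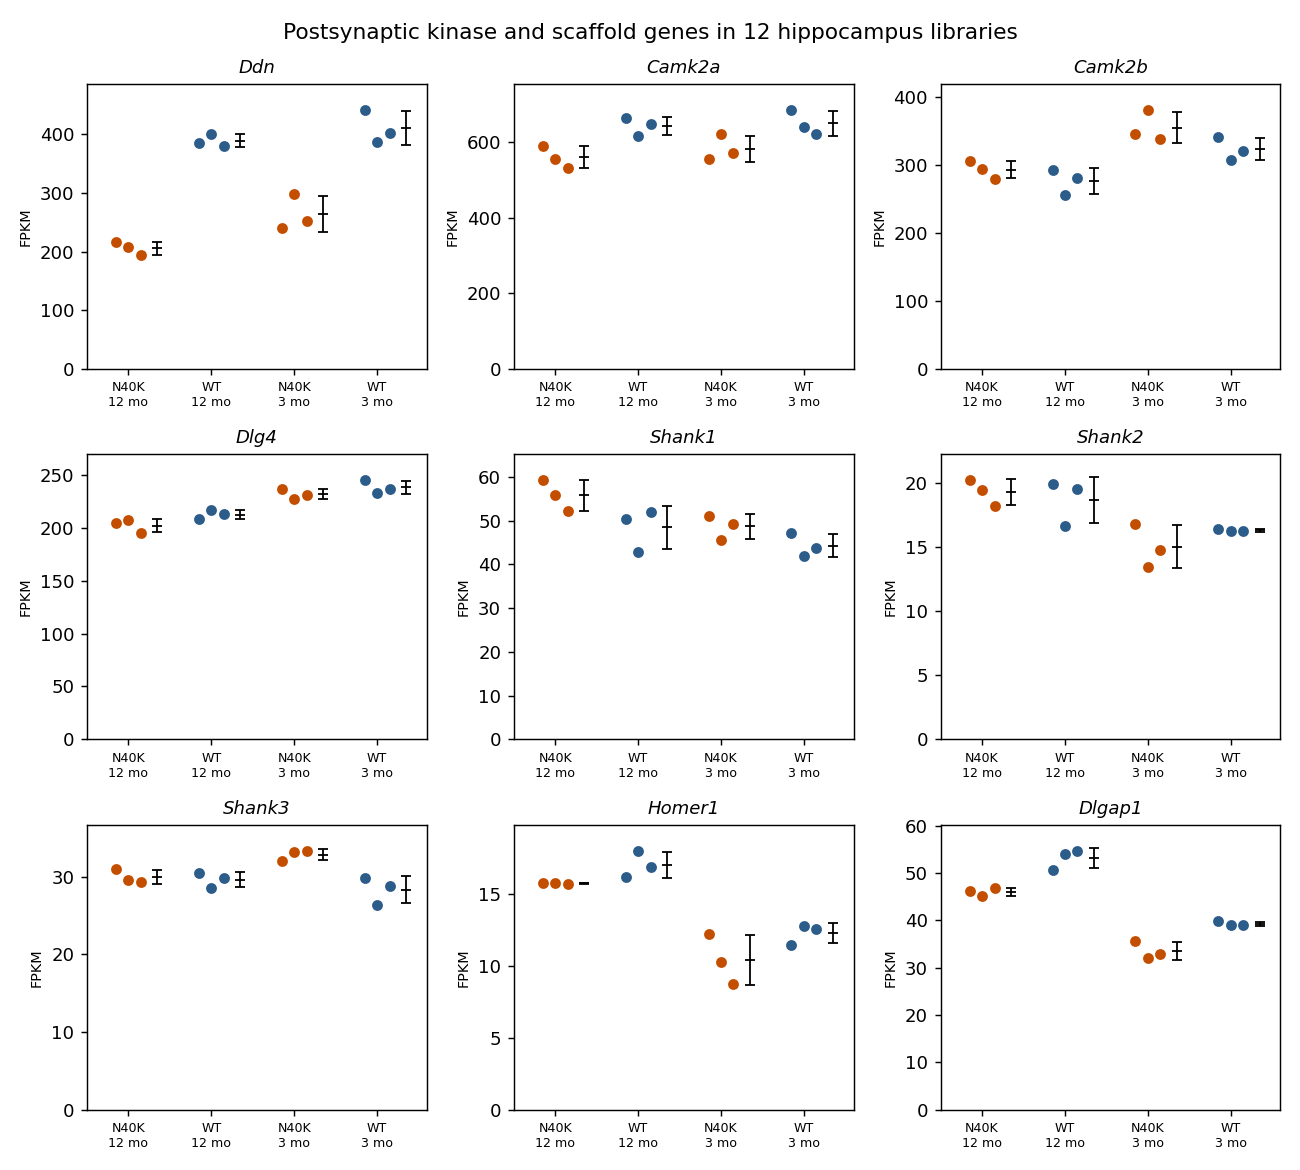
FPKM of each of the 9 genes in 12 hippocampus libraries, with 1 point per library (orange, N40K; blue, WT) and the mean ± SD of each group of 3 beside the points, on axes that start at 0. Ddn is separated by genotype at both ages, with N40K libraries between 193.7 and 298.1 FPKM and WT libraries between 380.3 and 442.1 FPKM.

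Ddn was the member with the largest genotype difference. At 12 months it was at 215.5, 207.6 and 193.7 FPKM in N40K mice, against 385.5, 401.0 and 380.3 FPKM in WT mice. At 3 months the N40K libraries held 239.9, 298.1 and 252.1 FPKM and the WT libraries 442.1, 386.8 and 402.3 FPKM. Every N40K library was below every WT library at both ages, as was so for 17.5% of all genes tested at 12 months and 11.5% at 3 months (21.3% and 20.4% had every N40K library above), and the highest N40K value of all was the second library of the 3-month mice. The mean fell to 205.6 ± 11.1 FPKM in N40K mice at 12 months, against 388.9 ± 10.8 FPKM in WT mice (SD, n = 3 each), a ratio of 0.529. At 3 months it fell to 263.4 ± 30.7 FPKM in N40K mice, against 410.4 ± 28.5 FPKM in WT mice, a ratio of 0.642.

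On the log2(FPKM + 1) scale used for all tests, the Ddn difference between N40K and WT was -0.92 ± 0.079 (SE) at 12 months (limma adjusted p = 4.65e-05). At 3 months the difference was -0.64 ± 0.079 (limma adjusted p = 0.000601). Among the 13945 genes tested it was the 19th lowest difference at 12 months and the 36th lowest at 3 months. The difference at 12 months minus that at 3 months was -0.28 (95% interval -0.52 to -0.030) and did not pass the threshold (limma adjusted p = 0.294). Exons of Ddn overlap an antisense gene, B130046B21Rik, which had no FPKM values under that name, and since no strand setting is given in the sources used here, reads of the 2 genes cannot be told apart. Podocytes, the other known site of dendrin, left almost no trace in the marker Nphs1, which was at most 0.854 FPKM in any library. Podxl, which blood vessels also express, was at 6.71 to 7.81 FPKM in N40K and 5.12 to 6.66 FPKM in WT mice at 12 months and at 6.27 to 7.02 FPKM in N40K and 6.76 to 8.03 FPKM in WT mice at 3 months.

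Fewer neurons and less RNA per neuron cannot be told apart in tissue samples such as these, so markers of neurons and of other cells are given beside the Ddn result. Summed over 6 markers, CA pyramidal neurons were at 473.3 to 510.6 FPKM in N40K and 552.2 to 591.6 FPKM in WT mice at 12 months, without overlap, and at 580.5 to 645.9 FPKM in N40K and 614.6 to 668.2 FPKM in WT mice at 3 months. Most of this sum in every library was Slc17a7. That marker was at 281.9 to 315.6 FPKM in N40K and 365.7 to 373.1 FPKM in WT mice at 12 months. At 3 months it was at 369.3 to 408.4 FPKM in N40K and 407.3 to 454.1 FPKM in WT mice. The other markers of the list were not summed without it. The 6 general neuron markers summed to 1508 to 1513 FPKM in N40K and 1591 to 1737 FPKM in WT mice at 12 months, and to 1450 to 1585 FPKM in N40K and 1521 to 1744 FPKM in WT mice at 3 months. Other lists were apart at 12 months as well: 6 endothelial markers summed to 46.7 to 50.2 FPKM in N40K and 35.9 to 38.0 FPKM in WT mice, 6 oligodendrocyte markers to 1361 to 1452 FPKM in N40K and 1517 to 1646 FPKM in WT mice, 6 astrocyte markers to 772.5 to 781.5 FPKM in N40K and 787.5 to 854.4 FPKM in WT mice, and 5 markers of the thalamus, which borders the hippocampus, to 19.0 to 28.6 FPKM in N40K and 16.8 to 18.8 FPKM in WT mice. At 3 months each of these 4 lists overlapped between genotypes, and those of microglia, inhibitory neurons and dentate granule neurons overlapped at both ages. The part of these cells in the Ddn difference was not tested. Divided by the summed CA pyramidal markers of the same library, Ddn was 0.409 to 0.422 in N40K and 0.678 to 0.692 in WT mice at 12 months. At 3 months this quotient was 0.390 to 0.492 in N40K and 0.595 to 0.662 in WT mice. The genotypes therefore stayed apart at both ages on this scale too.

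Because U1 pairs with the bases around the start of an intron, among them the last bases of the exon before it, the only exon junction of Ddn is shown. It is the coding sequence from the GENCODE M21 transcript, 30 bases on either side of the junction, with the last 3 bases of exon 1 in capitals (GRCm38, minus strand, exon 1 end at chr15:98807605-98807634 and exon 2 start at chr15:98807171-98807200).
Ddn exon 1 to exon 2: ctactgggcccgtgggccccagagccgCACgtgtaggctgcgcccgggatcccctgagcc
Exon 1 of Ddn thus ends in AC, whereas 56.1% of the 132058 exon ends of the 13049 tested genes with annotated exons, coding or not, end in AG. With 2 exons, Ddn is at the low end of the annotation, as 10.2% of those genes have as many or fewer, and the other 8 genes have 9 (Homer1) to 25 (Shank1) exons in the transcript with the longest coding sequence. FPKM per gene does not measure splicing, so no value of junction use is given.

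**Figure D2:**
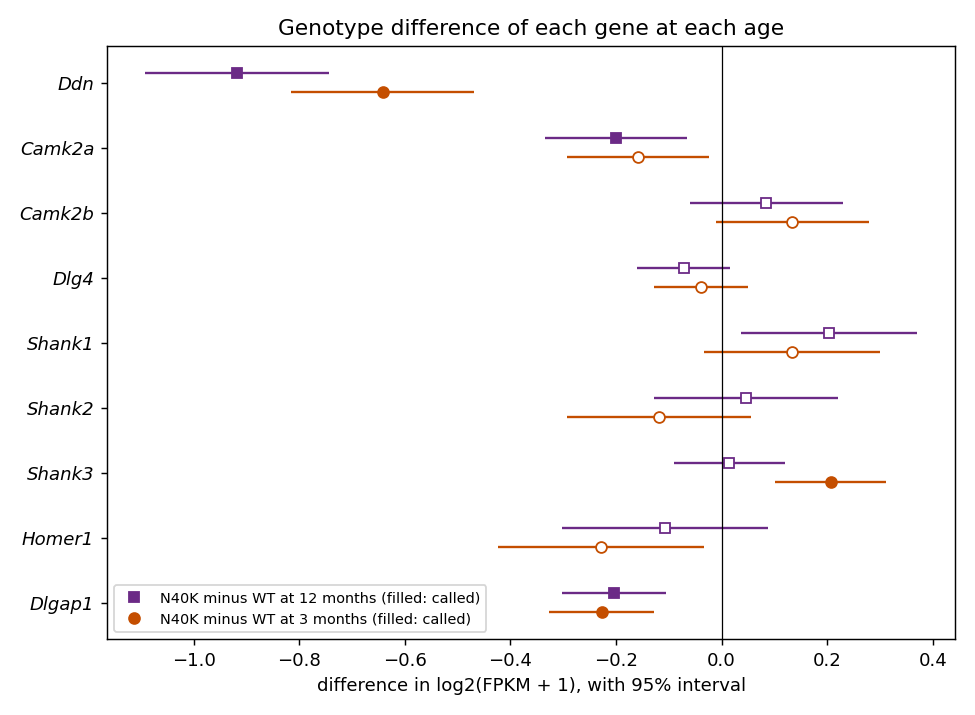
N40K minus WT difference of each of the 9 genes in log2(FPKM + 1), at 12 months (purple squares) and at 3 months (orange circles), with 95% intervals as lines, filled where the limma adjusted p was under 0.05. Ddn lies at -0.92 and -0.64, and Dlgap1 at -0.20 and -0.23, called at both ages.

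Of the 9 genes, 0 were called higher and 3 lower in N40K mice at 12 months (Ddn, Dlgap1, Camk2a), where 11.2% of all genes tested were called higher and 7.71% lower. At 3 months 1 was called higher (Shank3) and 2 lower (Ddn, Dlgap1), where 7.95% of all genes were called higher and 3.49% lower. Averaged over both ages, 2 were called higher (Shank1, Shank3) and 3 lower (Ddn, Dlgap1, Camk2a), beside 15.5% and 9.54% of all genes. The split of all calls moved with scaling: 69.5% of the calls at 3 months and 61.9% of the averaged ones were higher in N40K on the deposited values, against 52.6% and 49.0% after median-ratio scaling. The averaged split of the members, 2 higher and 3 lower, was 0 higher and 4 lower with median-ratio scaling and with each library's trend with GC content or with transcript length removed. The averaged count of 5 members dropped to 3 (0 higher, 3 lower) with Xist as a covariate and without any 1 of 5 libraries: the first or the second N40K library at 12 months, the second WT library at 12 months, the third N40K library at 3 months or the second WT library at 3 months. For the change of the genotype difference with age, 0 of the 9 genes were called by limma, where 0.0645% of all genes were. At an unadjusted p under 0.05 there were 2 of the 9, Ddn and Shank3, where 14.3% of all genes passed.

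Camk2a, which encodes the alpha subunit and is the most abundant of the 9 genes, fell in N40K mice at 12 months by a small amount. It was at 590.2, 555.8 and 532.7 FPKM in N40K mice at 12 months, against 663.0, 616.3 and 648.6 FPKM in WT mice. The 3-month levels were 555.3, 620.7 and 570.6 FPKM in N40K mice, against 686.2, 639.9 and 622.3 FPKM in WT mice. The groups did not overlap at either age, although at 3 months the highest N40K and the lowest WT library were nearly equal. The log2 difference was -0.20 ± 0.061 at 12 months (limma adjusted p = 0.0417), -0.16 ± 0.061 at 3 months (adjusted p = 0.128), and -0.18 ± 0.043 averaged over both ages (adjusted p = 0.0111). The 12-month call was lost with no filter on low values, with median-ratio scaling, with each age fitted alone, with the replicate number as a block and with quantile normalization, where its difference was -0.084. It was also lost without any N40K library or the first or the third WT library of that age, and without the third N40K or the second WT library at 3 months, at adjusted p from 0.0514 to 0.131. The averaged call was lost with quantile normalization (-0.11, adjusted p = 0.13). Divided by the CA pyramidal markers, Camk2a overlapped between genotypes, at 1.11 to 1.16 in N40K and 1.04 to 1.19 in WT mice at 12 months and at 0.883 to 1.03 in N40K and 0.984 to 1.03 in WT mice at 3 months. Slc17a7, itself lower in N40K mice at 12 months, made up most of that marker sum, and the other pyramidal markers were not used alone. The general neuron markers do not include Slc17a7. Divided by their sum, Camk2a was at 0.353 to 0.390 in N40K and 0.355 to 0.408 in WT mice at 12 months. The 3-month values were 0.360 to 0.428 in N40K and 0.375 to 0.409 in WT mice, so the genotypes overlapped at both ages here too. The part of those markers in the Camk2a difference was not tested.

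Camk2b encodes the beta subunit, which binds actin and is enriched at synapses. It was at 305.7, 293.6 and 280.2 FPKM in N40K mice at 12 months, against 293.3, 255.9 and 280.6 FPKM in WT mice, and at 346.2, 381.9 and 338.1 FPKM in N40K mice at 3 months, against 341.3, 308.1 and 321.3 FPKM in WT mice. The groups overlapped at both ages. The log2 difference was 0.085 at 12 months (95% interval -0.060 to 0.23, limma adjusted p = 0.397) and 0.13 at 3 months (-0.011 to 0.28, adjusted p = 0.233).

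The ratio of the alpha to the beta subunit transcript within a library, which does not depend on how libraries are scaled, separated the genotypes. It was 1.93, 1.89 and 1.90 in N40K mice at 12 months, against 2.26, 2.41 and 2.31 in WT mice. At 3 months it was 1.60, 1.63 and 1.69 in N40K mice, against 2.01, 2.08 and 1.94 in WT mice. No N40K library reached a WT library of its age, though the 12-month N40K and the 3-month WT values lay close together. The mean log2 ratio was 0.289 lower in N40K mice over both ages (exact permutation test within age, two-sided, p = 0.005, the smallest that 400 arrangements can give, and 0.01 adjusted over 4 ratios). In CaMKII the 2 subunits form mixed holoenzymes, and the ratio of their messages is not a measure of protein.

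**Figure D3:**
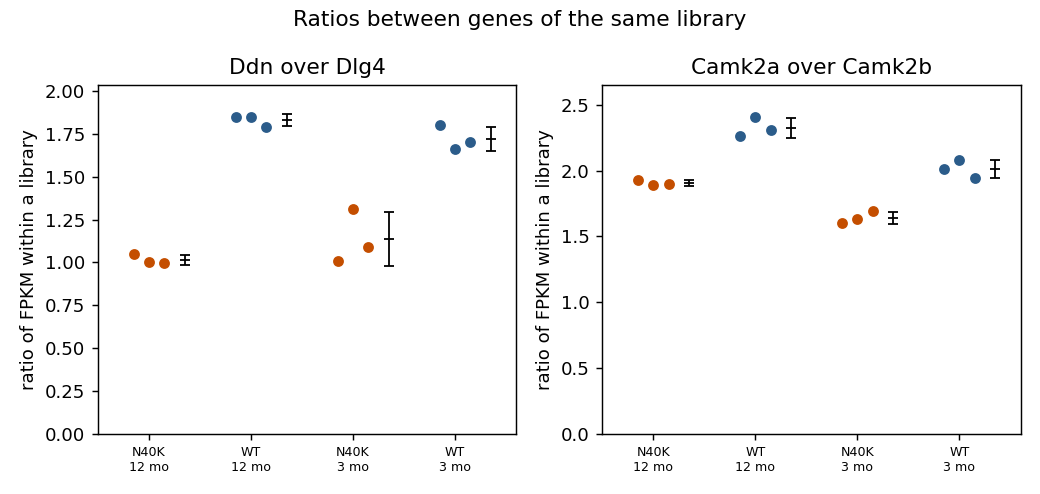
Ratio of FPKM between 2 genes of the same library, Ddn over Dlg4 (left) and Camk2a over Camk2b (right), with 1 point per library (orange, N40K; blue, WT) and the mean ± SD of each group of 3. All N40K points lie below all WT points of the same age in both panels.

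Dlg4, which encodes PSD-95, the core scaffold of the excitatory synapse, showed no called genotype difference. It was at 204.6, 207.1 and 194.9 FPKM in N40K mice at 12 months, against 208.1, 216.6 and 212.8 FPKM in WT mice. In the younger mice, N40K libraries had 237.0, 227.3 and 231.4 FPKM and WT libraries 245.2, 232.5 and 237.2 FPKM. The 12-month groups did not overlap but came close to each other, and the 3-month groups overlapped. The difference was -0.072 at 12 months (95% interval -0.16 to 0.017, limma adjusted p = 0.235) and -0.039 at 3 months (-0.13 to 0.049, adjusted p = 0.608), intervals that leave out a change of the size seen for Ddn. Relative to Dlg4 in the same library, Ddn stood at a geometric mean of 1.02 in N40K mice and 1.83 in WT mice at 12 months, and at 1.13 in N40K mice and 1.72 in WT mice at 3 months. The mean log2 ratio was 0.727 lower in N40K mice over both ages (exact permutation test within age, two-sided, p = 0.005, adjusted 0.01). Since Ddn itself was apart by genotype at both ages and Dlg4 varied little, this p restates the Ddn difference and is no separate support.

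Dlgap1, whose product SAPAP1 sits between PSD-95 and the SHANK proteins, fell in N40K mice at both ages by a similar amount. It was at 46.1, 45.1 and 46.9 FPKM in N40K mice at 12 months, against 50.7, 54.0 and 54.7 FPKM in WT mice. Its 3-month levels were 35.5, 32.0 and 32.9 FPKM in N40K mice, against 39.8, 39.1 and 39.1 FPKM in WT mice. All N40K libraries were below all WT libraries of their age. The difference was -0.20 ± 0.045 at 12 months (limma adjusted p = 0.0107) and -0.23 ± 0.045 at 3 months (adjusted p = 0.00865), and over every library left out in turn the adjusted p stayed between 0.00728 and 0.0491 at 12 months and between 0.00429 and 0.039 at 3 months. Divided by the CA pyramidal markers, Dlgap1 overlapped between genotypes at both ages, at 0.0900 to 0.0990 in N40K and 0.0910 to 0.0991 in WT mice at 12 months and at 0.0510 to 0.0612 in N40K and 0.0595 to 0.0636 in WT mice at 3 months. Most of that marker sum was Slc17a7, which was itself lower in N40K mice at 12 months, and the other pyramidal markers were not used alone. Divided by the general neuron markers, which do not include Slc17a7, Dlgap1 also overlapped at both ages. It was at 0.0299 to 0.0310 in N40K and 0.0302 to 0.0344 in WT mice at 12 months. The 3-month values were 0.0208 to 0.0242 in N40K and 0.0228 to 0.0257 in WT mice. The part of those markers in the Dlgap1 difference was not tested. Exons of Dlgap1 overlap AC079441.1 on the opposite strand, so its reads are uncertain to that extent.

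The 3 SHANK genes encode the large scaffolds that join the receptor layer to the actin cytoskeleton, and they did not move as a group. Shank3 rose in N40K mice at 3 months, to 32.0, 33.1 and 33.4 FPKM, against 29.8, 26.4 and 28.9 FPKM in WT mice. At 12 months Shank3 was at 30.9, 29.6 and 29.4 FPKM in N40K mice, against 30.5, 28.6 and 29.8 FPKM in WT mice. The 3-month groups were apart and the 12-month groups overlapped. The difference was 0.21 ± 0.048 at 3 months (limma adjusted p = 0.0191) and 0.015 at 12 months (95% interval -0.090 to 0.12, adjusted p = 0.858), and their change of -0.19 did not pass the threshold (adjusted p = 0.245). The 3-month call was lost after removal of each library's trend with GC content (0.072, adjusted p = 0.269), with median-ratio scaling (0.17, adjusted p = 0.0692), with each age fitted alone (adjusted p = 0.0527), and without the second N40K library (0.20, adjusted p = 0.0656), the third N40K library (0.20, adjusted p = 0.069) or the second WT library (0.16, adjusted p = 0.0745) of that age.

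Shank1 was at 59.3, 55.8 and 52.3 FPKM in N40K mice at 12 months, against 50.4, 42.9 and 51.9 FPKM in WT mice. Levels at 3 months were 51.1, 45.7 and 49.2 FPKM in N40K mice, against 47.1, 42.0 and 43.7 FPKM in WT mice. The 12-month groups narrowly did not overlap, and the 3-month groups did. Neither age was called (0.20, limma adjusted p = 0.0838 at 12 months; 0.13, adjusted p = 0.305 at 3 months), while the average over both ages was, at 0.17 ± 0.054 (adjusted p = 0.0396). That averaged call was lost with no filter, with median-ratio scaling, with Xist as a covariate and with the length trend removed (adjusted p from 0.0598 to 0.0969) and with the GC trend removed (0.11, adjusted p = 0.149), and without the first or second N40K or the second WT library at 12 months or the first or the third N40K or the second or the third WT library at 3 months (up to 0.0959). The averaged Shank3 difference of 0.11 ± 0.034 (adjusted p = 0.0336) was likewise lost with median-ratio scaling (adjusted p = 0.123), with the GC trend removed (0.048, adjusted p = 0.212), with the length trend removed (0.081, adjusted p = 0.141) and with Xist as a covariate (adjusted p = 0.0586). It was also lost without the first or second N40K or the second or the third WT library at 12 months or the second or the third N40K or the second WT library at 3 months (up to 0.0837). Shank1 and Shank3 overlap other genes on the opposite strand, 1700008O03Rik at 2.05 to 3.79 FPKM and Gm15609, which had no FPKM values under that name.

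Shank2 was at 20.2, 19.4 and 18.2 FPKM in N40K mice at 12 months, against 19.9, 16.6 and 19.5 FPKM in WT mice. At 3 months it was at 16.8, 13.4 and 14.8 FPKM in N40K mice, against 16.4, 16.2 and 16.3 FPKM in WT mice. Groups overlapped at both ages, and the WT libraries at 3 months differed by far less among themselves than the N40K ones. The log2 difference was 0.046 at 12 months (95% interval -0.13 to 0.22, limma adjusted p = 0.72) and -0.12 at 3 months (-0.29 to 0.057, adjusted p = 0.399). Of the summed FPKM of the 3 SHANK genes, Shank1 made up 52.4% to 53.7% in N40K and 48.7% to 51.3% in WT mice at 12 months. At 3 months Shank2 made up 14.6% to 16.8% in N40K and 17.6% to 19.2% in WT mice. These shares did not overlap, nor did that of Shank2 at 12 months (18.2% to 18.5% in N40K, 18.9% to 19.7% in WT mice). The Shank1 and Shank3 shares overlapped at 3 months, and the Shank3 shares at 12 months met at 29.4%. Over both ages the log2 ratio of Shank1 to Shank3 (0.058 higher in N40K, exact permutation p = 0.375) and that of Shank2 to Shank3 (0.153 lower, p = 0.15, adjusted 0.2) did not pass the threshold.

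Homer1, a linker that also has an activity-induced short form, was the least abundant of the 9 genes. Its 3 N40K libraries at 12 months were at 15.7 FPKM each, against 16.2, 18.0 and 16.9 FPKM in WT mice. At 3 months it was at 12.2, 10.3 and 8.73 FPKM in N40K mice, against 11.5, 12.8 and 12.5 FPKM in WT mice. The 12-month groups did not overlap and the 3-month groups did, through the first N40K library. The difference was -0.11 at 12 months (95% interval -0.30 to 0.088, limma adjusted p = 0.431) and -0.23 at 3 months (-0.42 to -0.033, adjusted p = 0.131). Without that first N40K library the 3-month difference was -0.34 and was called (adjusted p = 0.0142). The average over both ages was -0.17 (adjusted p = 0.0738), and it was called with median-ratio scaling (-0.19, adjusted p = 0.036), quantile normalization, the length or the GC trend removed (adjusted p from 0.0268 to 0.0473) and without that library (-0.22, adjusted p = 0.00791). Long and short HOMER1 forms share 1 entry in the table and were not separated.

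Homer1 and Dlgap1 had the largest age differences of the 9 genes. Between 12 and 3 months, averaged over both genotypes, 4 of the 9 genes rose (Homer1, Dlgap1, Shank2, Shank1) and 3 fell (Camk2b, Ddn, Dlg4), where 17.7% of all genes were called higher and 42.9% lower. Of all calls 29.1% were higher at 12 months on the deposited values, and 48.3% after median-ratio scaling. The split of the 9 was 5 higher and 1 lower with the GC trend removed, 4 and 0 with quantile normalization, 4 and 2 with median-ratio scaling and 2 and 4 with the length trend removed. Homer1 rose to means of 15.7 FPKM in N40K and 17.0 FPKM in WT mice at 12 months, against 10.4 FPKM in N40K and 12.3 FPKM in WT mice at 3 months (0.50 ± 0.063, limma adjusted p = 4.39e-05). Dlgap1 rose to 46.0 FPKM in N40K and 53.1 FPKM in WT mice at 12 months, against 33.5 FPKM in N40K and 39.3 FPKM in WT mice at 3 months (0.44 ± 0.032, adjusted p = 1.05e-06). For both genes every 12-month library was above every 3-month library of its genotype, as was so for 19.1% of all genes in N40K and 15.7% in WT mice (43.7% and 34.5% had every 12-month library below), and both calls held under every setting and with every library left out in turn, with Dlgap1 at 0.29 once the length trend was removed.

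The other age calls depended on the scaling, and Shank3, uncalled at -0.033, was called at 0.25 with the GC trend removed (adjusted p = 2.18e-05) and at -0.20 with the length trend removed (adjusted p = 0.00161). Shank2 was 0.26 higher at 12 months (limma adjusted p = 0.00177) but 0.015 higher once each library's trend with transcript length was removed, and 0.42 higher with the GC trend removed. Shank1 was 0.16 higher (adjusted p = 0.0236) and turned to -0.13 with the length trend removed (called, adjusted p = 0.0413), while it was 0.25 to 0.43 higher with median-ratio scaling, quantile normalization or the GC trend removed. Its call was also lost with Xist as a covariate (0.13, adjusted p = 0.135) and without the first N40K or the first or the third WT library at 12 months or the second N40K or second WT library at 3 months (adjusted p from 0.0543 to 0.0602). Camk2b was 0.25 lower at 12 months (adjusted p = 0.000711), at 293.2 FPKM in N40K and 276.6 FPKM in WT mice at 12 months, against 355.4 FPKM in N40K and 323.6 FPKM in WT mice at 3 months. Dlg4 was 0.18 lower (adjusted p = 0.000225), at 202.2 FPKM in N40K and 212.5 FPKM in WT mice at 12 months, against 231.9 FPKM in N40K and 238.3 FPKM in WT mice at 3 months. Under quantile normalization both were lost, at -0.071 for Camk2b and -0.036 for Dlg4, and Camk2b was also lost with the GC trend removed (-0.062, adjusted p = 0.273). With median-ratio scaling both stayed called, at -0.16 for Camk2b and -0.090 for Dlg4, and Dlg4 was at -0.28 with the length trend removed. Ddn was 0.21 lower (adjusted p = 0.00622) and was lost with median-ratio scaling (-0.12), quantile normalization (-0.049) and the length trend removed (-0.13), and turned to 0.045 with the GC trend removed. In N40K mice all 12-month Ddn libraries were below all 3-month ones, whereas in WT mice they overlapped, and the difference between these age changes, which is the change of the genotype difference given above, did not pass the threshold (limma adjusted p = 0.294).

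Since the age calls of Homer1 and Dlgap1 held under every setting, their upstream sequence is shown, from the RefSeq promoter table (GRCm38.p6, 250 bases before the annotated start, taking the outermost where a gene has several). There, 5 of the 9 genes had an entry: Camk2b, Dlg4, Shank3, Homer1 and Dlgap1. Capitals mark the core TGACG of the cyclic AMP response element, searched on both strands (CGTCA on the other).
Homer1, chr13:93303507-93303756, plus strand: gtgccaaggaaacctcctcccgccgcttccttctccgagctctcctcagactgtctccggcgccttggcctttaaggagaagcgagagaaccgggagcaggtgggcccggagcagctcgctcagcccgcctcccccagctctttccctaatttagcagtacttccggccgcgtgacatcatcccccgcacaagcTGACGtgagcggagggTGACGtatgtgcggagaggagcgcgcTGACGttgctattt
Dlgap1, chr17:69968823-69969072, plus strand: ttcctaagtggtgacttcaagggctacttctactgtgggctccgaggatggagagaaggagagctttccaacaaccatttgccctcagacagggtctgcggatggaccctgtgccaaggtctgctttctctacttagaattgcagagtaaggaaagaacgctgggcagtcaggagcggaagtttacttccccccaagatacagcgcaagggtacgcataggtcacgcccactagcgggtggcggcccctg
The Homer1 window held 3 such cores and the Dlgap1 window 0, while 17.8% of the 27025 mouse genes of the table held at least 1 at their outermost start. Homer1 and Dlgap1 have 2 starts each in the table, and the window of the other start held 0 cores in both genes. The outermost windows of Camk2b, Dlg4 and Shank3 held 0 as well, and of the other windows of Dlg4, which has 3 starts, 1 held a single core. Camk2b and Shank3 held 3 and 4 GC boxes (GGGCGG or CCGCCC), a motif that 33.0% of those genes held, in windows of 78.4% and 82.4% GC, and Homer1, Dlgap1 and Dlg4 held 0 in windows of 62.4%, 55.2% and 47.2% GC.

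Around the 9 genes, 41 other listed postsynaptic genes were analysed. In N40K mice at 12 months 4 of the 41 rose and 5 fell, and at 3 months 1 rose and 2 fell, shares to be read beside the 11.2% and 7.71%, and the 7.95% and 3.49%, of all genes given above. The median log2 difference of the 41 was -0.043 at 12 months, against 0.0066 for all genes, and -0.024 at 3 months, against 0.020 for all genes. Averaged over both ages 2 rose and 5 fell, with a median of -0.012 against 0.014 for all genes. Between 12 and 3 months 18 rose and 15 fell, beside 17.7% and 42.9% of all genes. That split was 22 higher and 1 lower with the GC trend removed, 22 and 7 with quantile normalization, 19 and 10 with median-ratio scaling and 11 and 14 with the length trend removed. For the change of the genotype difference with age 0 of the 41 were called by limma, and 17 had an unadjusted p under 0.05, beside the 14.3% of all genes.

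Ppp1r9b, which encodes spinophilin, the protein that brings protein phosphatase 1 to spines, had the largest fall of this list at both ages. It was at 159.3, 159.2 and 156.8 FPKM in N40K mice at 12 months, against 203.7, 227.3 and 207.4 FPKM in WT mice (-0.42 ± 0.051, limma adjusted p = 0.000431). At 3 months it was at 187.2, 196.6 and 194.8 FPKM in N40K mice, against 242.2, 222.5 and 222.1 FPKM in WT mice (-0.25 ± 0.051, adjusted p = 0.0108, and -0.38 with the GC trend removed). The groups did not overlap at either age. Sipa1l1, a Rap GTPase-activating protein of spines, also fell at both ages, by 0.18 at 12 months (adjusted p = 0.0175) and by 0.20 at 3 months (adjusted p = 0.0149), though the 12-month call was lost with quantile normalization (-0.12, adjusted p = 0.117), with each age fitted alone (0.0656) and without the second or the third N40K or the third WT library of that age (adjusted p up to 0.0711) and the 3-month call without the second or the third N40K or the second WT library of that age (up to 0.0629).

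The relatives of the scaffold genes differed in direction at 12 months. Dlgap3, another SAPAP gene, fell in N40K mice to 41.0, 43.1 and 38.5 FPKM, against 55.8, 49.2 and 50.1 FPKM in WT mice (-0.33 ± 0.072, limma adjusted p = 0.00942). Dlgap2 rose to 13.7, 13.2 and 12.1 FPKM in N40K mice, against 10.9, 9.76 and 11.4 FPKM in WT mice (0.26 ± 0.059, adjusted p = 0.0119). Homer2, a relative of Homer1, rose to 10.5, 9.92 and 9.03 FPKM in N40K mice, against 7.75, 8.39 and 8.32 FPKM in WT mice (0.24 ± 0.059, adjusted p = 0.0172), a call that was lost with quantile normalization, with each age fitted alone, with the length trend removed (0.13, adjusted p = 0.208) and without the first or second N40K or the first WT library of that age (up to 0.0771). The Dlgap2 call was lost without the first N40K library (0.22, adjusted p = 0.0568) and with each age fitted alone (adjusted p = 0.0604). All N40K and WT libraries of the 3 genes were apart at 12 months. At 3 months none of the 3 was called, with differences of -0.025 for Dlgap3, -0.049 for Dlgap2 and -0.0057 for Homer2, although Dlgap3 was called with the GC trend removed (-0.19, adjusted p = 0.0406).

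Tnik, a kinase of the postsynaptic density, had the largest rise of the list at 12 months, to 31.2, 29.9 and 28.3 FPKM in N40K mice, against 22.1, 18.6 and 24.4 FPKM in WT mice (0.45 ± 0.096, limma adjusted p = 0.00918). Nlgn2, the neuroligin of inhibitory synapses, rose to 38.4, 38.6 and 37.5 FPKM in N40K mice, against 33.3, 29.8 and 33.2 FPKM in WT mice (0.24 ± 0.050, adjusted p = 0.00763). Cript, a small protein that binds a PDZ domain of PSD-95, fell to 28.7, 30.04 and 29.8 FPKM in N40K mice, against 34.5, 39.7 and 34.7 FPKM in WT mice (-0.29 ± 0.059, adjusted p = 0.00728). Lzts3, a SHANK-binding protein, fell by 0.21 (adjusted p = 0.0483), a call lost with no filter, quantile normalization, Xist as a covariate and each age fitted alone (adjusted p from 0.0528 to 0.12), and when any library other than the first WT library at 3 months or the second WT library at 12 months was left out (up to 0.137). Begain, a PSD-95-binding protein, rose at 3 months to 33.4, 41.2 and 41.5 FPKM in N40K mice, against 32.7, 29.7 and 27.9 FPKM in WT mice (0.35 ± 0.085, adjusted p = 0.0234), and was lost with the GC trend removed (0.19, adjusted p = 0.088), with median-ratio scaling (adjusted p = 0.0559), with each age fitted alone (0.0663) and without the second or the third N40K or the second or the third WT library of that age (up to 0.0908). None of the 41 genes had a fall as large as that of Ddn at either age.

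**Figure D4:**
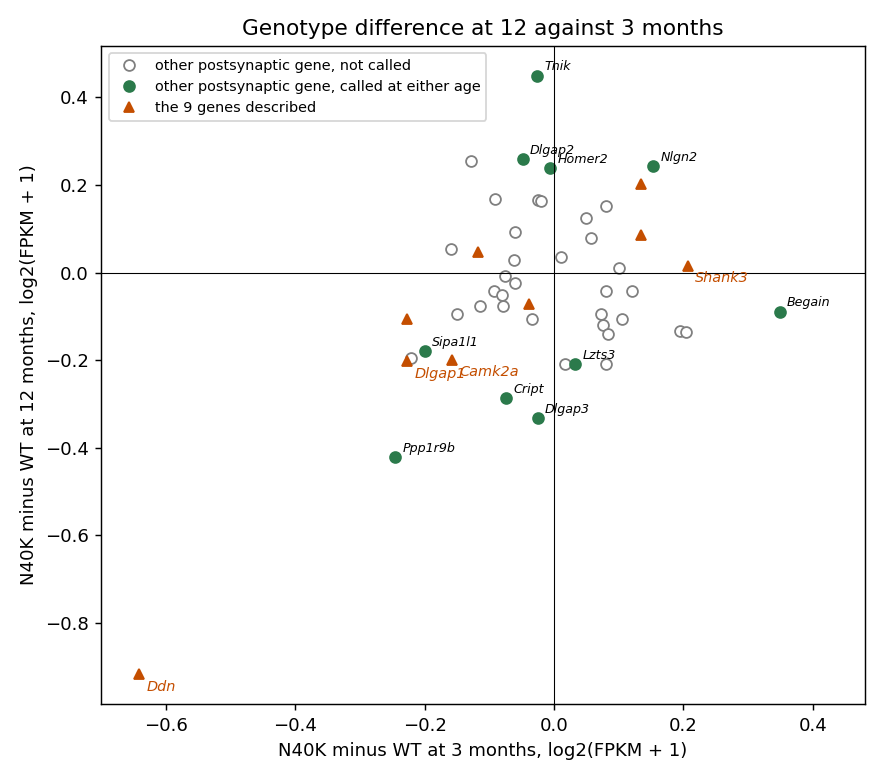
N40K minus WT difference in log2(FPKM + 1) at 3 months (horizontal) and 12 months (vertical) for 41 other postsynaptic genes (circles, filled green where called at either age) and the 9 genes described (orange triangles). Ddn lies apart from all others at -0.64 and -0.92, and the lowest circle, Ppp1r9b, at -0.25 and -0.42.

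The genes whose values over the 12 libraries were most like those of Ddn were Ak5, Smoc2, Scg5, Heatr3 and Ift20. Likeness was the root mean square difference of gene-centred log2(FPKM + 1) among 9403 genes with a mean of at least 5 FPKM, and it was 0.095 for Ak5 and 0.13 to 0.17 for the next 4, where the median gene stood at 0.43. Ak5, an adenylate kinase, was at 47.1 ± 1.64 FPKM in N40K and 89.2 ± 3.71 FPKM in WT mice at 12 months (SD, n = 3 each), and at 61.1 ± 1.68 FPKM in N40K and 91.5 ± 6.09 FPKM in WT mice at 3 months. Smoc2, a secreted calcium-binding protein, was at 4.97 ± 0.69 FPKM in N40K and 12.8 ± 0.31 FPKM in WT mice at 12 months, and at 8.30 ± 0.94 FPKM in N40K and 12.7 ± 0.20 FPKM in WT mice at 3 months. These genes were picked for their likeness over the same libraries, so their levels are a description. For Dlgap1 the nearest genes were Ppp6r2 (0.026) and Fam13b (0.034), for Camk2a Eepd1 (0.046) and Tvp23a (0.053), and for Shank3 Arhgap39 and Csnk1d (0.056 each). These values are not on the footing of those for Ddn, as the members varied less. The median gene stood at 0.314 for Dlgap1, 0.171 for Camk2a and 0.158 for Shank3. A gene without any variation would stand at 0.247, 0.109 and 0.0878, against 0.419 for Ddn.

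**Figure D5:**
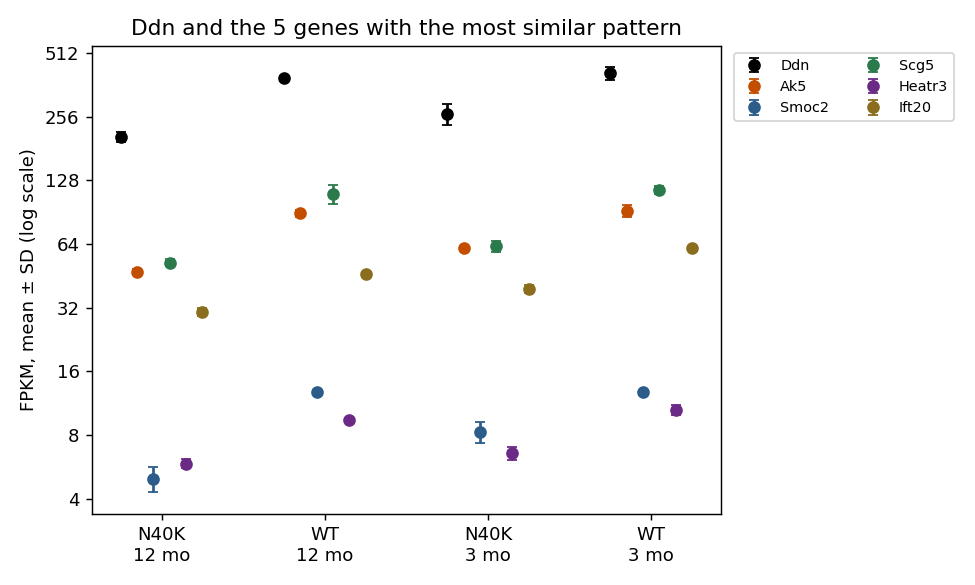
Mean FPKM ± SD (n = 3, log scale) of Ddn and the 5 genes with the most similar values over the libraries, in the 4 groups. In each of the 6 genes both N40K means lie below both WT means, with Ddn at 205.6 and 263.4 FPKM in N40K and 388.9 and 410.4 FPKM in WT mice.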

How the data were processed

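Poly-A RNA of mouse hippocampus was sequenced as paired 100 bp reads, per the labels. The authors deposited 1 table of FPKM, per the file headers. CASAVA, STAR, BWA and mm9 are named in the submitters' processing notes, without roles; the counting tool, annotation and strand setting are not given in the sources used here. All 12 columns matched a library name. Low FPKM values move in steps of 1 fragment, and 1066 receptor genes were searched for such steps. The depth of a library was chosen so that many of the 41 to 76 values used became whole fragments within 0.05. The resulting share of 92.3% to 100.0% is part of that choice and no separate check of the depth. No count test was run.

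The values were tested as log2(FPKM + 1), which understates changes of low genes, in limma 3.58.1 (R 4.3.3), fitting 4 group means, eBayes with a trend, two-sided, with Benjamini-Hochberg adjustment over 13945 genes and a threshold of 0.05. "Called", "rose" and "fell" refer to that threshold. Within-library ratios were tested by exact permutation of genotype within age. Pseudocounts of 0.1 and 0.5, other filters and scalings, length and GC trends (lowess, span 0.3), Xist as a covariate, each age alone, the replicate number as a block and each library left out were alternatives. The fit was tested on simulated data. Deviations of same-numbered libraries correlated over 0.1 in all 3 pairs of the 3-month WT group with either 12-month group, but not between the genotypes of 1 age or in any pairing with the 3-month N40K group (all correlations from -0.456 to 0.723), so the numbers were not used as pairs. Members and lists were chosen with earlier results of these data known. Named genes were the 9 members, Snrnp70, the listed postsynaptic genes called at either age, and the nearest genes by values. Annotation was GENCODE M21, on another build than mm9, used for names, lengths, overlaps and the printed sequences. Other steps used pandas 2.3.3 and numpy 2.4.6 in Python 3.11.15, and plots matplotlib 3.10.9.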

Additional observations from a re-analysis of the deposited data

Results flagged for a closer look

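Dlgap2, a SAPAP gene related to Dlgap1, lay on opposite sides of WT at the 2 ages. At 12 months all 3 N40K libraries (13.7, 13.2 and 12.1 FPKM) were above all 3 WT libraries (10.9, 9.76 and 11.4 FPKM), and at 3 months all 3 N40K libraries (8.04, 7.72 and 7.94 FPKM) were below all 3 WT libraries (8.24, 8.21 and 8.18 FPKM). The change of its genotype difference between the ages, 0.31 on the log2 scale (0.3077 ± 0.083 SE), did not pass the threshold (limma adjusted p = 0.168), and the 3-month difference itself was not called. Only members and named genes were searched for this pattern. Cnksr2, another listed postsynaptic gene, uncalled at both ages, had it too. Its means were 48.29 FPKM in N40K and 42.89 FPKM in WT mice at 12 months, and 32.45 and 34.65 FPKM at 3 months. The share of all genes with this pattern was not counted.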

How the results depend on the processing

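The genotype calls of Ddn and Dlgap1 and the age calls of Homer1 and Dlgap1 kept their direction and their side of the threshold under every alternative run. With each age fitted alone, 1499 genes were called at 12 months, against 1557 higher and 1075 lower, and 5 of the other postsynaptic genes, against 9. The number of genes whose genotype difference changed with age was 0 with the replicate number as a block and with Xist as a covariate, against 9. With Xist as a covariate 3 members were called on average over both ages, and with quantile normalization 4 members were called for age. Under the replicate block, the log2 ratios were tested by sign exchanges of numbered pairs. Those of Ddn to Dlg4 (-0.727) and of Camk2a to Camk2b (-0.289) each had an adjusted p of 0.0625 over 4 ratios and did not pass the threshold. The exchanges give few distinct p-values, and the adjusted ones depend on the other ratios. In limma with that block, the Camk2a difference at 12 months was lost (adjusted p = 0.0573) and that of Shank1 was called (0.043). The replicate numbers were not taken to pair the libraries.

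Signs turned as follows; among these values Shank3 for age with the GC trend removed and Shank1 for age with the length trend removed were called. With quantile normalization Camk2a for age was 0.11, the changes with age of the genotype difference were 0.056 for Camk2a, 0.093 for Camk2b and 0.060 for Dlg4, Dlg4 at 12 months was 0.013 and Shank3 for age 0.073. With median-ratio scaling Camk2a for age was 0.055, Shank3 at 12 months -0.00056 and for age 0.056, and Lzts3 at 3 months -0.0021. With the GC trend removed Ddn for age was 0.045, Camk2a for age 0.084, the Camk2b change 5.18e-05, Shank3 for age 0.25 and Lzts3 at 3 months -0.052. With the length trend removed Shank1 for age was -0.13 and its change -0.029, Shank2 at 12 months -0.039, Shank3 at 12 months -0.048 and the Dlgap1 change -0.039. The causes were not tested.

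Over libraries left out in turn, genes called ran from 796 to 2227 at 3 months, from 1337 to 2607 at 12 months and from 0 to 162 for the change, members called on average over both ages from 3 to 5 and other postsynaptic genes called at 3 months from 1 to 5. Uncalled changes with age ran from -0.082 to 0.0049 for Camk2a, from -0.10 to 0.0035 for Camk2b, from -0.014 to 0.12 for Shank1, from -0.0083 to 0.067 for Dlgap1 and from -0.071 to 0.19 for Snrnp70. Differences at 12 months ran from -0.031 to 0.091 for Shank2 and from -0.010 to 0.036 for Shank3, and at 3 months from -0.079 to 0.031 for Dlgap3, from -0.00095 to 0.075 for Lzts3, from -0.10 to 0.044 for Tnik and from -0.044 to 0.017 for Homer2. Each member value rested on an estimated 1980 fragments or more.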

Other observations

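Averaged over both ages, Lrrtm2, a postsynaptic adhesion protein that was singled out after its values were seen, fell by 0.21 in N40K mice (limma adjusted p = 0.0258), to means of 9.46 FPKM in N40K and 10.98 FPKM in WT mice at 12 months and 6.77 FPKM in N40K and 8.04 FPKM in WT mice at 3 months. It was not called at either age alone (adjusted p = 0.129 at 12 months and 0.124 at 3 months). Its groups were apart at 12 months and overlapped at 3 months. The averaged call of Lrrtm2 was not checked under the alternatives or with libraries left out.

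Among relatives of the 2 CaMKII genes, none was called for genotype. Camk2g was at a mean of 41.6 FPKM in N40K and 43.1 FPKM in WT mice at 12 months, and at 45.4 FPKM in N40K and 48.7 FPKM in WT mice at 3 months. Camk2d was at 14.5 FPKM in N40K and 12.5 FPKM in WT mice at 12 months, and at 7.89 FPKM in N40K and 8.60 FPKM in WT mice at 3 months. Camk2n1, which encodes an inhibitor of CaMKII, was at 167.2 FPKM in N40K and 166.2 FPKM in WT mice at 12 months, and at 171.8 FPKM in N40K and 160.4 FPKM in WT mice at 3 months.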
